A study of Caenorhabditis elegans with 15 samples.

Results

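The UDP-glucuronosyltransferase (ugt) genes were followed in intestines dissected from Caenorhabditis elegans at 5 days of age. Every gene whose deposited name begins with ugt- was taken, which gave 66 of 46904 genes. RNA was sequenced by Smart-seq2, a full-transcript method that keeps no strand information, from 15 libraries of 20 intestines each. The 3 groups of 5 libraries were the gas-1(fc21) mutant with overexpression of cest-2.2, called OE here, the gas-1(fc21) mutant alone, called gas-1 here, and wild type. All worms grew on OP50 bacteria, and both OE and gas-1 worms carry the fc21 allele. The gene gas-1 encodes a core subunit of respiratory complex I, the mitochondrial NADH dehydrogenase, and cest-2.2 encodes a carboxylesterase-like protein. The promoter and the copy number behind the overexpression are not given in the sources used here, and the titles name 1 strain for all OE libraries. That the libraries of a group came from separate cultures is not stated either, so p-values measure the spread between these libraries.

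UDP-glucuronosyltransferases join a sugar from a UDP-sugar to small lipophilic molecules, the conjugation step that follows oxidation or hydrolysis in the removal of drugs, toxins and endogenous waste. The conjugate is more soluble in water and can be exported from the cell. In nematodes the sugar is often glucose rather than glucuronic acid, and the intestine is a main site of this chemistry. The substrates of the members named here are not described, since few of these enzymes have a substrate assigned with certainty.

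All 66 members were annotated as protein coding in the reference annotation of build WBcel235, with proteins of 501 to 558 residues (median 530.5). The transcript with the longest coding sequence had 4 to 11 exons, untranslated ones included. Chromosome V carried 41 of the members (62.1%), while it holds 25% of the 19985 annotated protein coding genes. Chromosome IV carried 12, I carried 5, X carried 4, III carried 3 and II carried 1. In all, 36 members lay within 20 kb of another member, in 10 runs of neighbours, and 30 stood alone. The longest runs held 7 genes each. One was ugt-12, ugt-11, ugt-9, ugt-10, ugt-8, ugt-14 and ugt-13 (chrV:4887165-4911399), and the other was ugt-5, ugt-4, ugt-6, ugt-3, ugt-18, ugt-16 and ugt-15 (chrV:12790676-12830114). Such neighbours are often close copies of each other. Read assignment was shared with other genes in at least 1 library for 11 members, among them ugt-19 and its neighbour ugt-20 (14 libraries each), ugt-22 (13) and ugt-62 (7). Their levels carry the uncertainty of that split.

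The exons of 14 members overlapped those of another gene, and reads of opposite strands cannot be told apart in these libraries. Most of these overlaps were short. For ugt-50 the overlap was 340 bases with nhr-26, a nuclear receptor gene whose level was at most 0.129 CPM (counts scaled to a common library total with TMM factors) in any library. For ugt-22 it was 309 bases with srz-29, which had 0 CPM in every library.

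Of the 66 members, 54 had enough counts to be tested. The 12 others were ugt-3, ugt-10, ugt-34, ugt-35, ugt-38, ugt-40, ugt-42, ugt-55, ugt-56, ugt-57, ugt-59 and ugt-66. Among these, ugt-35, ugt-38 and ugt-57 had no count in any library, and the most counts any untested member had in 1 library was 171, for ugt-66.

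Library totals were 12785262 to 45896053 estimated counts in OE, 12607565 to 17688689 in gas-1 and 12182697 to 40045140 in wild type. Intestine markers were present throughout: none of the 23 was at 0 in every library, and their mean log2 CPM was 5.56 to 6.92 in OE, 6.27 to 6.94 in gas-1 and 5.23 to 6.28 in wild type. Germline markers were also present, at 6.15 to 6.95 in OE, 5.76 to 6.52 in gas-1 and 6.5 to 6.82 in wild type. Body wall muscle markers stood at 2.19 to 4.54 in OE and 3.35 to 4.23 in gas-1. In wild type they were at 6.1, 5.07 and 6.59 in replicates 1, 2 and 4, against 3.16 and 4.17 in replicates 3 and 5. The gas-1 transcript itself was at 123.5 ± 20.7 CPM in gas-1 and 67.7 ± 14.3 CPM in wild type (SD, n = 5 each). fc21 is known as a missense allele, so this level is no check of the genotype. The cest-2.2 transcript was at 121.0 ± 42.7 CPM in OE, 56.1 ± 24.2 CPM in gas-1 and 42.1 ± 17.4 CPM in wild type (SD, n = 5 each). Its log2 difference was 1.11 ± 0.33 (SE) for OE over gas-1 (adjusted p = 0.109) and 1.52 ± 0.34 for OE over wild type (adjusted p = 0.0112).

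The family took a small share of the transcriptome, and the share was highest in gas-1. It was 0.244% ± 0.0365 of all estimated counts in OE, 0.363% ± 0.0382 in gas-1 and 0.185% ± 0.0394 in wild type (SD, n = 5 each). The libraries ran from 0.192% to 0.294% in OE, from 0.318% to 0.403% in gas-1 and from 0.143% to 0.249% in wild type. No gas-1 library overlapped any library of the other groups, while OE and wild type overlapped. Yolk protein transcripts fill much of these libraries, and with vit-1 to vit-6 left out of the total the shares were 0.386%, 0.513% and 0.256% for OE, gas-1 and wild type. On that denominator OE (0.259% to 0.529%) overlapped gas-1 (0.427% to 0.572%).

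A single member made up much of the difference. ugt-62 held 29.98% of the family's counts in OE, 35.9% in gas-1 and 8.76% in wild type. Without ugt-62, the summed level of the others was 2106 ± 782 CPM in OE, 2454 ± 716 CPM in gas-1 and 1428 ± 433 CPM in wild type (SD, n = 5 each). On the CPM scale these sums overlapped between all groups. As a share of all estimated counts, the others made up 0.131% to 0.197% in OE, 0.199% to 0.263% in gas-1 and 0.133% to 0.228% in wild type. On that scale every gas-1 library was just above every OE library, and gas-1 overlapped wild type. In bulk tissue, fewer cells of a type and less RNA per cell cannot be told apart.

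**Figure D1:**
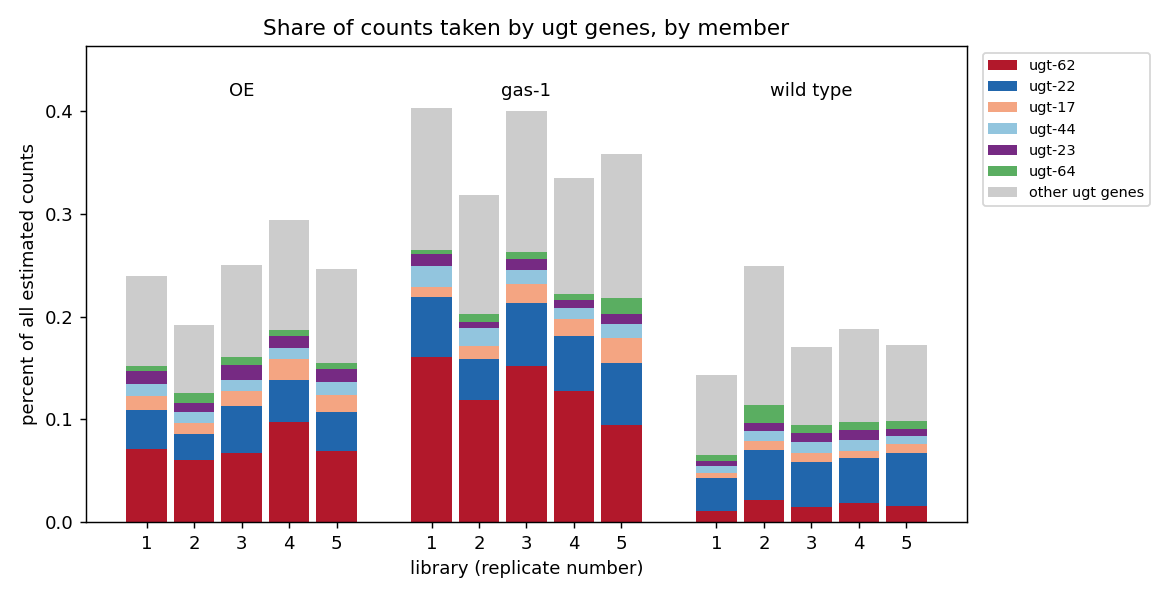
Percent of all estimated counts taken by ugt genes in each of the 15 libraries (bars), with the 6 members of highest mean TPM in colour and all others in grey. The ugt-62 segment is 0.0607% to 0.0971% of counts in OE libraries, 0.0950% to 0.160% in gas-1 libraries and 0.0105% to 0.0212% in wild type libraries.

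Levels between genes were compared in TPM, which accounts for transcript length. About 30 members reached a mean of 10 TPM in each group: 30 in OE, 31 in gas-1 and 30 in wild type. In OE the order was ugt-62 (754 ± 252 TPM), ugt-22 (322 ± 92.5 TPM), ugt-17 (156 ± 57.0 TPM) and ugt-23 (132 ± 27.3 TPM). In gas-1 it was ugt-62 (1253 ± 195 TPM), ugt-22 (452 ± 93.8 TPM), ugt-17 (161 ± 67.6 TPM) and ugt-44 (137 ± 27.9 TPM). In wild type ugt-22 led with 344 ± 67.3 TPM, ahead of ugt-62 with 151 ± 42.1 TPM, ugt-64 with 94.98 ± 45.8 TPM and ugt-53 with 82.1 ± 18.6 TPM (SD, n = 5). The wild type members that came next, ugt-26 (81.0 TPM) and ugt-44 (80.6 TPM), differed from ugt-53 and ugt-64 by less than the spread between libraries. By mean TPM, ugt-62 thus ranked first in both strains with the fc21 allele and ugt-22 ranked first in wild type.

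**Figure D2:**
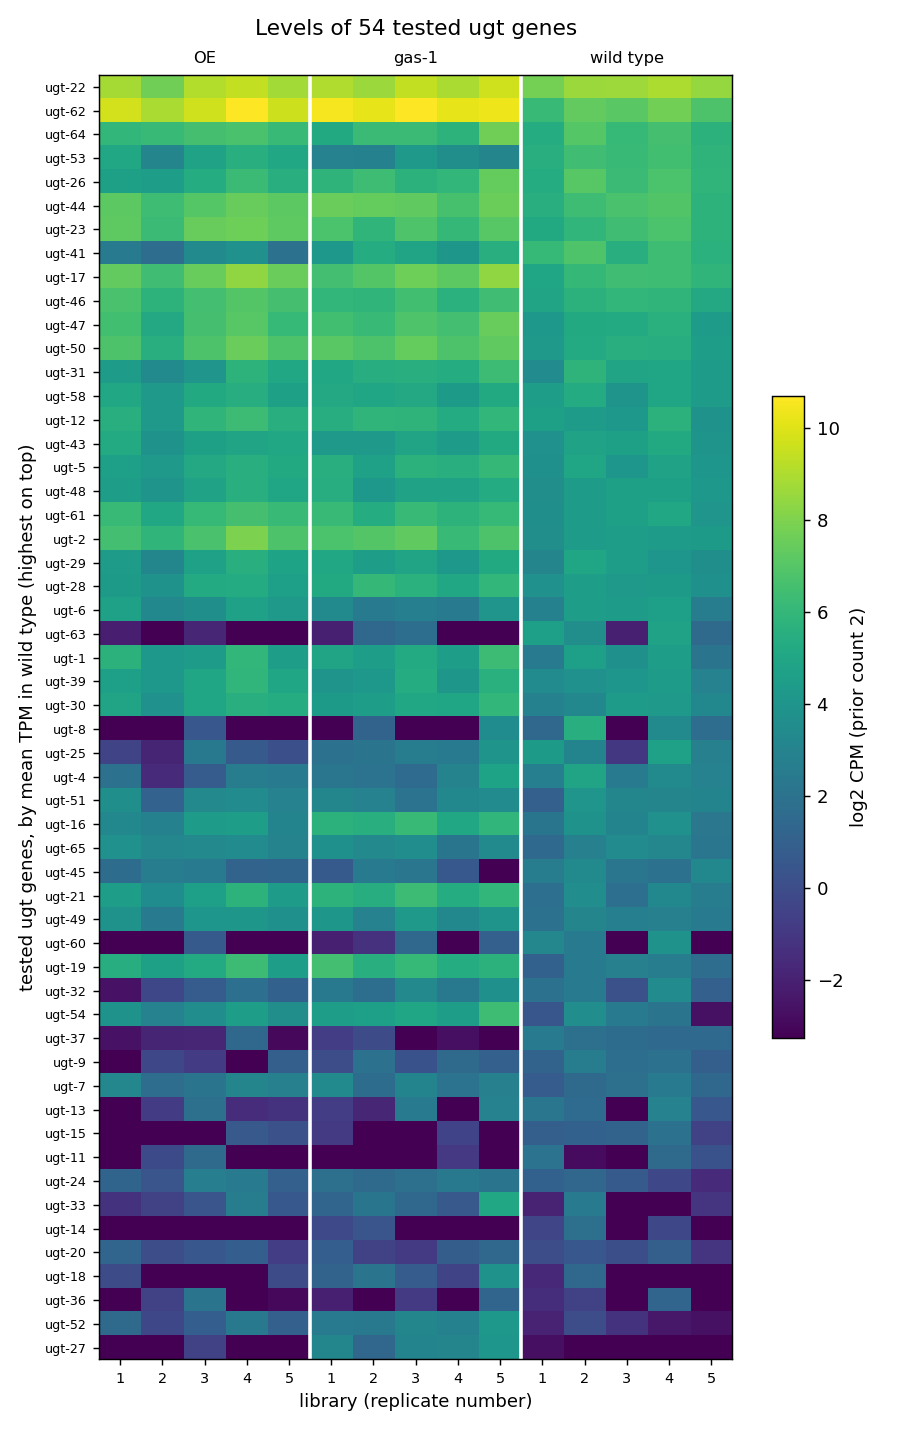
Level of the 54 tested ugt genes (rows, ordered by mean TPM in wild type) in the 15 libraries (columns), as log2 CPM with a prior count of 2. The row of ugt-62 is bright in every OE and gas-1 library, and the row of ugt-27 leaves the dark end of the scale in the gas-1 libraries.

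The first comparison asks how the family differed between the complex I mutant and wild type. In gas-1 intestines 17 of the 54 tested members were higher, 3 were lower and 34 did not pass the test (edgeR quasi-likelihood F test, Benjamini-Hochberg adjusted p under 0.05 over 10585 genes). That is 37.0% of the members called, against 21.4% of all tested genes. By direction, 31.5% of members and 12.8% of all genes were higher, and 5.56% of members and 8.63% of all genes were lower. The median log2 fold change was 0.63 over the members and -0.11 over all tested genes. Of the 20 called members, 19 differed at least 2-fold. All 5 gas-1 libraries lay above all 5 wild type libraries for 14 members, and below them for 2. Over all tested genes such separation was seen for 9.64% upward and 6.24% downward (15.9% in either direction).

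ugt-62 (WBGene00010904, chrIII:4537281-4540623, minus strand, 531 residues) was the most abundant of the higher members. It had 1427, 1155, 1660, 1145 and 1296 CPM in gas-1, against 70.8, 164.9, 141.6, 208.3 and 112.8 CPM in wild type. Every gas-1 library was more than 5 times the highest wild type library. The log2 fold change was 3.26 ± 0.32 (SE; adjusted p = 7.49e-06).

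ugt-19 (WBGene00019515, chrIV:6076686-6079952, minus strand) had 91.2, 44.3, 67.8, 41.7 and 52.5 CPM in gas-1, against 2.02, 5.68, 6.93, 6.24 and 3.13 CPM in wild type. The groups did not overlap, and the log2 fold change was 3.63 ± 0.40 (adjusted p = 2.13e-05). Its neighbour ugt-20, whose counts were also split with other genes, had a log2 fold change of 0.38 and was not called. ugt-2 (WBGene00007073, chrV:10398801-10401307, plus strand) had 106.4, 122.8, 154.4, 69.7 and 110.6 CPM in gas-1, against 12.4, 20.7, 22.8, 22.1 and 19.9 CPM in wild type. Its groups were also fully apart (log2 fold change 2.52 ± 0.33, adjusted p = 9.94e-05). The gene beside it, ugt-1, stood at 1.43 and just missed the threshold (edgeR adjusted p = 0.0557). It was called higher under 10 of 26 alternative settings, DESeq2 and limma-voom among them.

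ugt-21 (WBGene00007885, chrIV:9500311-9502574, plus strand) had 53.99, 42.8, 78.5, 40.9 and 62.6 CPM in gas-1, against 3.47, 11.98, 3.42, 9.399 and 5.87 CPM in wild type. The lowest gas-1 library was above the highest wild type library (log2 fold change 3.03 ± 0.42, adjusted p = 0.000188). ugt-50 (WBGene00011564, chrX:12691573-12695652, plus strand) had 137.8, 109.5, 169.4, 111.9 and 155.1 CPM in gas-1, against 19.3, 38.4, 47.2, 43.8 and 23.7 CPM in wild type. It too was apart in all libraries (log2 fold change 1.99 ± 0.31, adjusted p = 0.000573).

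A few members were close to silent in wild type. ugt-27 (WBGene00015694, chrI:4724065-4726771, plus strand) had 8.55, 2.43, 8.01, 8.34 and 16.5 CPM in gas-1, against 0.0518 CPM in wild type replicate 1 and 0 in the other wild type libraries. That is 633 estimated counts in gas-1 and 1 in wild type, a ratio of 995.9 after scaling with an exact 95% counting interval of 178.1 to 39400. The interval covers counting error only, and reads are not independent molecules. The fitted log2 fold change of 9.15 ± 1.32 (adjusted p = 0.000259) depends on the prior count. ugt-52 (WBGene00018931, chrIV:778784-784182, plus strand) had 5.51, 5.17, 8.59, 7.23 and 17.7 CPM in gas-1, against 0.155, 0.905, 0.328, 0.0931 and 0.0570 CPM in wild type. Its groups did not overlap (log2 fold change 4.72 ± 0.72, adjusted p = 0.000416).

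ugt-16 (WBGene00013901, chrV:12825024-12827442, plus strand) had 52.2, 44.6, 73.7, 33.7 and 61.2 CPM in gas-1, against 4.40, 14.3, 8.21, 14.0 and 4.79 CPM in wild type (log2 fold change 2.54 ± 0.42, adjusted p = 0.000758). All gas-1 libraries were higher. ugt-61 (WBGene00018206, chrV:4742422-4745373, plus strand) had 70.3, 40.8, 70.9, 53.6 and 68.3 CPM in gas-1, against 12.5, 20.96, 25.7, 33.4 and 16.2 CPM in wild type (log2 fold change 1.48 ± 0.28, adjusted p = 0.00226). The other higher members, by log2 fold change, were ugt-54 (2.95), ugt-47 (1.74), ugt-28 (1.48), ugt-17 (1.46), ugt-30 (1.37), ugt-5 (1.16), ugt-49 (1.11) and ugt-44 (0.97). The call of ugt-49 was lost under 7 of 26 alternative settings.

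The 3 lower members all lie on chromosome V, which carries 32 of the 54 tested members. ugt-53 (WBGene00020182, chrV:2849343-2852028, plus strand) had 7.42, 7.22, 19.3, 12.1 and 8.36 CPM in gas-1, against 44.8, 86.7, 71.4, 87.4 and 56.9 CPM in wild type. It stands alone on the chromosome, and every gas-1 library was below every wild type library (log2 fold change -2.67 ± 0.39, adjusted p = 0.000279). ugt-41 (WBGene00017336, chrV:7161068-7163595, minus strand) had 18.2, 40.8, 29.8, 17.2 and 47.2 CPM in gas-1, against 67.5, 116.3, 45.0, 82.7 and 49.8 CPM in wild type. Its groups overlapped at 1 library each (log2 fold change -1.24 ± 0.40, adjusted p = 0.0382). Without wild type replicates 1, 2 and 4 its log2 fold change was -0.61 with an adjusted p of 0.482, and the muscle markers were high in those same libraries. Those were also the highest wild type libraries of ugt-41, so leaving them out lowers its wild type level by construction. The part of those markers in the result was not tested. ugt-37, in the same run of neighbours as ugt-41, had a log2 fold change of -3.61 at an adjusted p of 0.046, and missed the threshold under 15 of 25 alternative settings. With any of wild type replicates 1, 2, 4 and 5 or gas-1 replicates 1, 3 and 4 left out, ugt-53 was the 1 member still called lower.

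**Figure D3:**
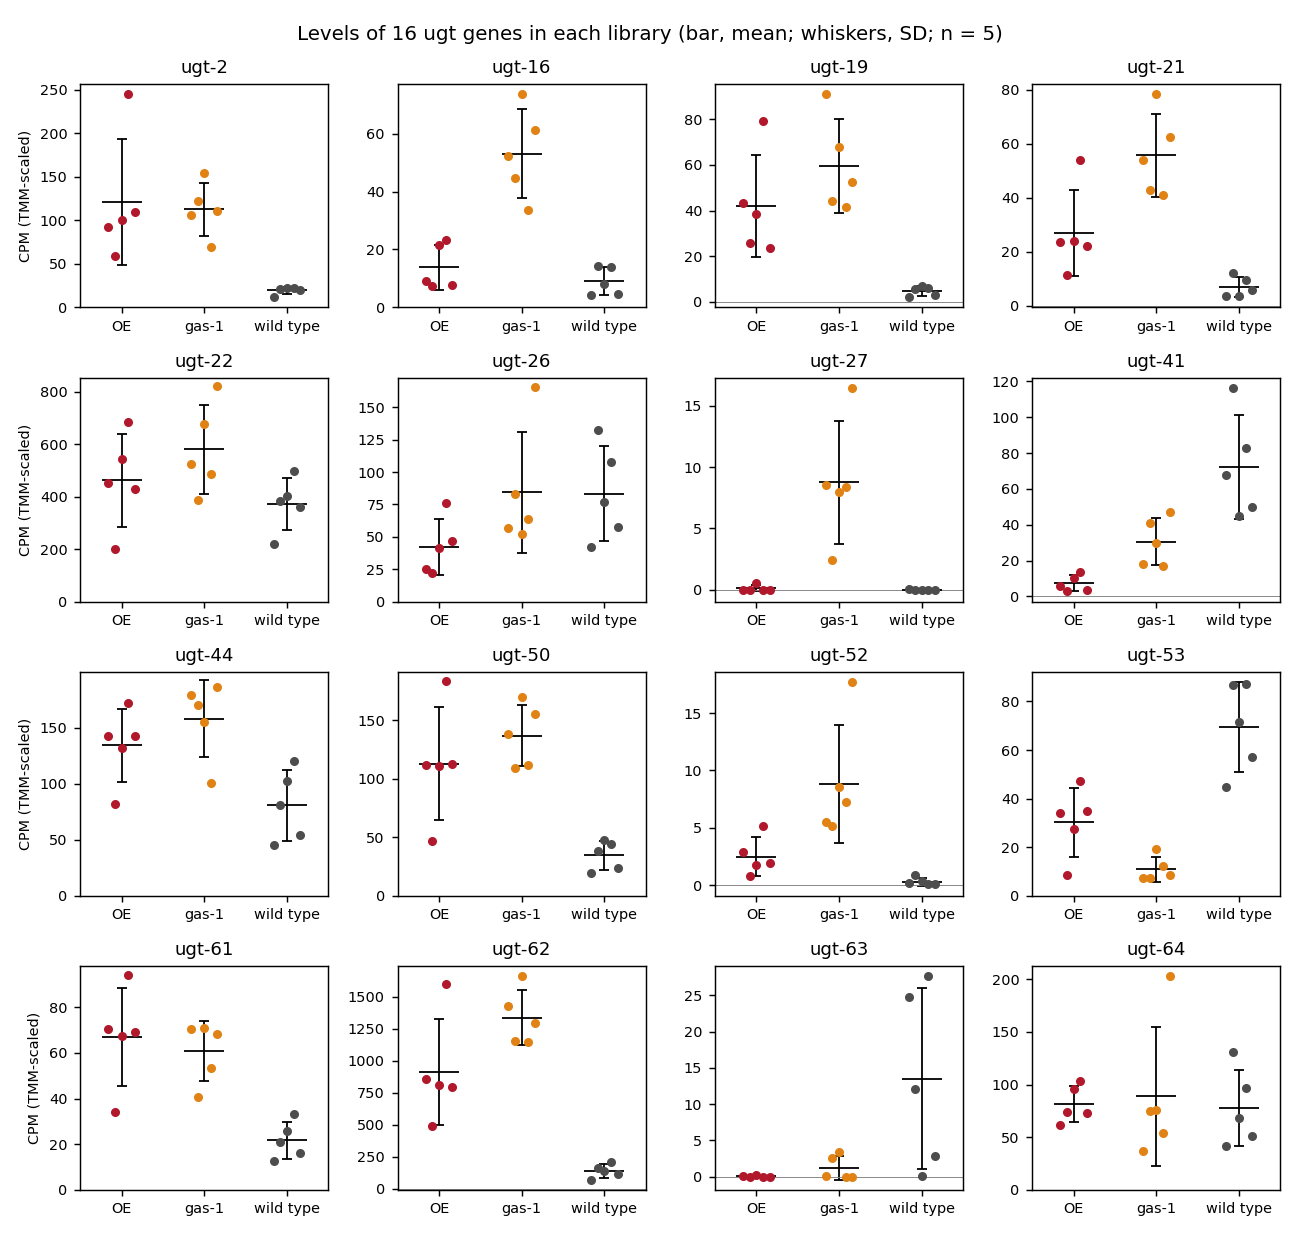
TMM-scaled CPM of 16 abundant or called ugt genes, by library, in OE, gas-1 and wild type. Points are single libraries (5 per group), the bar is the mean and the whiskers are the SD. ugt-62 and ugt-19 are high in OE and gas-1, ugt-16 and ugt-27 are high in gas-1 alone of the 3 groups, and ugt-53 and ugt-41 are highest in wild type.

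Abundant members were among those that did not pass. ugt-22 (WBGene00007455, chrIV:13639260-13644567, plus strand) had 522.8, 387.8, 677.4, 488.0 and 821.9 CPM in gas-1, against 219.5, 382.7, 402.8, 497.1 and 359.8 CPM in wild type, with overlapping groups (log2 fold change 0.64 ± 0.29, adjusted p = 0.119). ugt-64 (WBGene00015577, chrV:3503080-3506352, minus strand) had 36.9, 74.8, 75.5, 54.1 and 203.6 CPM in gas-1, against 41.2, 130.5, 68.3, 96.6 and 51.2 CPM in wild type. Its groups overlapped, with gas-1 replicate 5 the highest of all. ugt-26 (WBGene00015695, chrI:4721131-4723982, plus strand) had 57.0, 83.1, 52.2, 63.5 and 165.6 CPM in gas-1, against 41.9, 132.4, 76.97, 108.1 and 57.9 CPM in wild type, again with overlap. It is the gene next to ugt-27, which was nearly silent in wild type and not in gas-1. ugt-44 (WBGene00008486, chrIV:10469741-10471899, plus strand), close to ugt-26 in wild type TPM, did pass, with 178.7, 170.4, 154.8, 100.3 and 186.1 CPM in gas-1, against 45.5, 81.3, 102.1, 119.8 and 54.1 CPM in wild type (log2 fold change 0.97, adjusted p = 0.0178).

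Calls fell both on members with a neighbour and on members that stand alone. Among the 28 tested members with a neighbour, 9 were higher and 2 were lower. Among the 26 tested members that stand alone, 8 were higher and 1 was lower. On chromosome V, 8 of 32 tested members were higher and 3 were lower, and on the other chromosomes 9 of 22 were higher and none was lower. The run from ugt-12 to ugt-13 had no call among 6 tested genes in the main fit. Its member ugt-12 (log2 fold change 1.0, edgeR adjusted p = 0.0532) was called higher under 11 of 26 alternative settings. Over the family, 32 of the 54 members (59.3%) had an unadjusted p under 0.05, against 37.9% of all tested genes. In the main fit the pair ugt-47 and ugt-17 was the only run of neighbours with every tested member called. Their log2 fold changes were 1.74 and 1.46. The differences between these counts were not tested, and the shares of all tested genes by chromosome or by neighbours were not computed. Over all chromosomes, 12.8% of all tested genes were higher and 8.63% were lower.

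**Figure D4:**
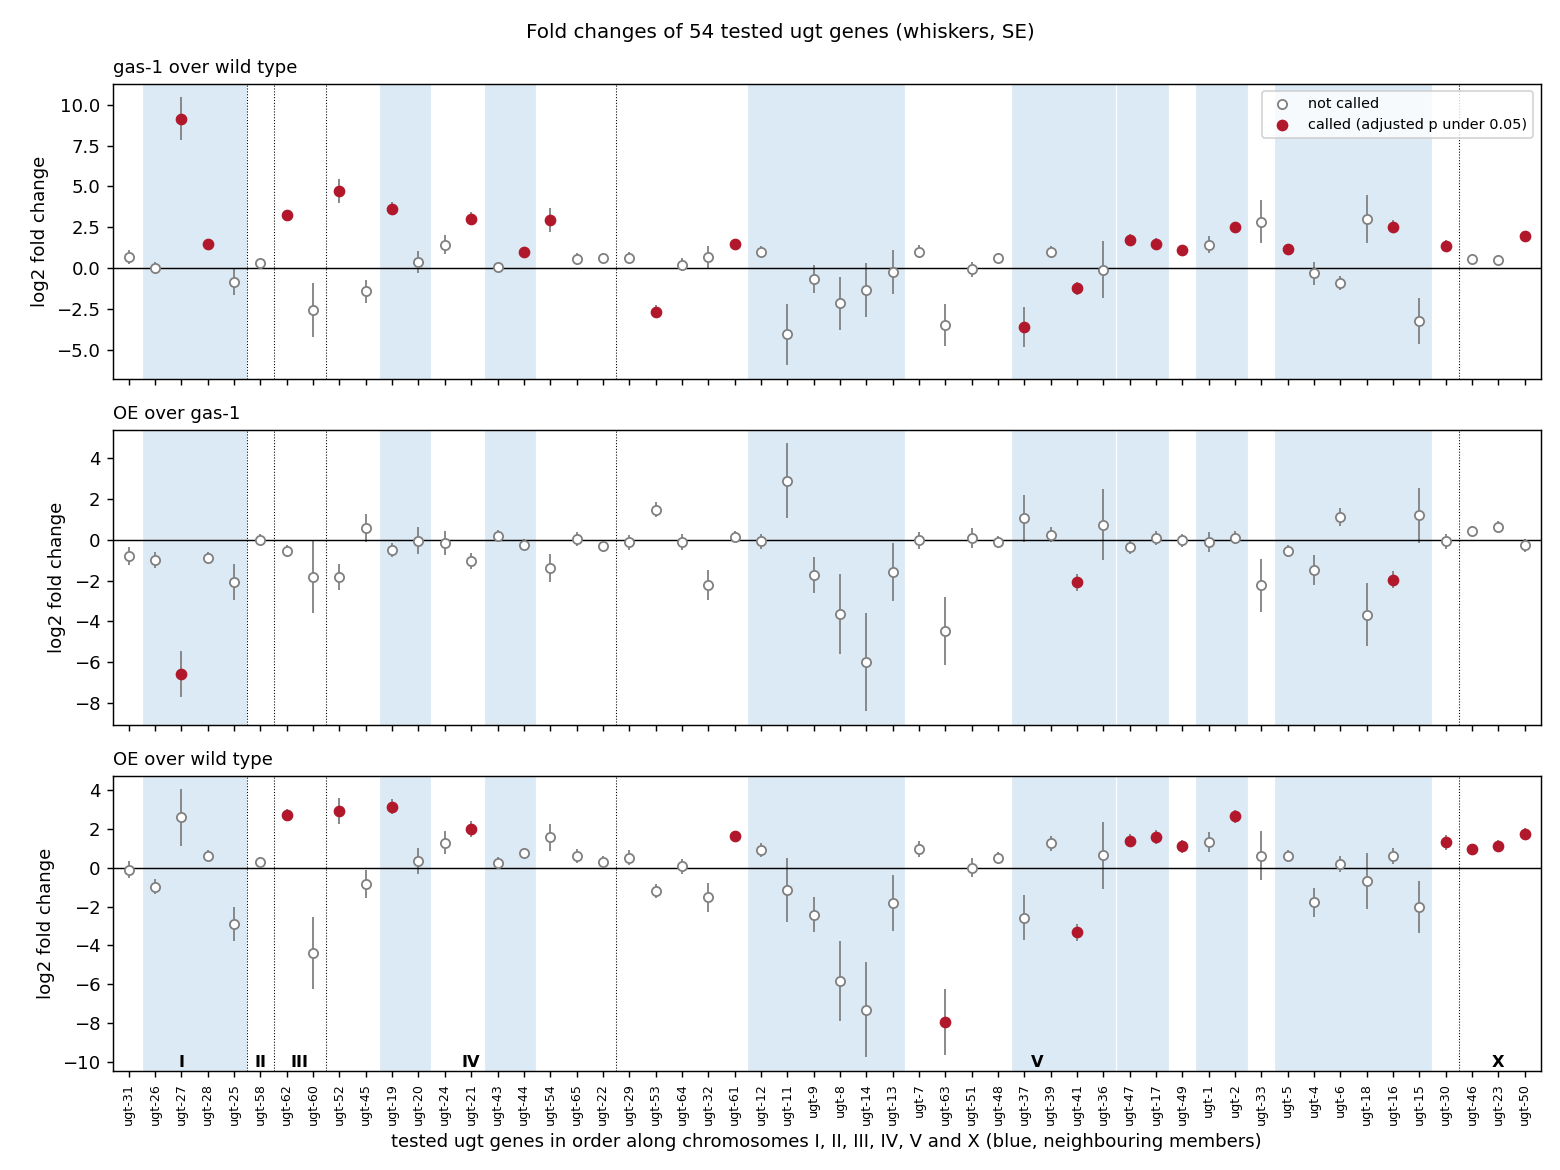
Log2 fold change with its standard error for the 54 tested ugt genes in chromosomal order, for gas-1 over wild type (top), OE over gas-1 (middle) and OE over wild type (bottom). Red points passed the test, blue bands join members within 20 kb of each other and dotted lines part the chromosomes. Red points above 0 number 17 at the top, 0 in the middle and 13 at the bottom.

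Markers of several cell types moved with this comparison. Of 23 intestine markers 11 were higher and 2 were lower in gas-1 than in wild type (median log2 fold change 0.92), while 9 of 24 germline markers, 9 of 18 oocyte markers and 6 of 14 muscle markers were lower and none was higher. With the mean germline marker level as a covariate, 7 of the 20 members were still called: ugt-2, ugt-19, ugt-21, ugt-27, ugt-52 and ugt-62 as higher, and ugt-53 as lower. Over all tested genes, 171 of the 2268 called (7.54%) were still called, and that fit called 1.82% of all tested genes. The median over the members was then -0.19. The germline marker level was 5.76 to 6.52 in gas-1 and 6.5 to 6.82 in wild type, so the covariate nearly separates these groups. Germline content and genotype therefore cannot be told apart by the fit with this covariate. Without wild type replicates 1, 2 and 4, which leaves 2 wild type libraries, 13 of the 20 were still called, against 524 of 2268 over all genes (23.1%), and the median was 1.13. In that fit 25.9% of members and 4.74% of all tested genes were called. The part of the intestine content in the levels of the members was not tested.

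The second comparison sets the mutant with overexpression of cest-2.2 against the mutant alone. The titles name 1 strain for OE, so overexpression cannot be told apart from other differences of that strain. In OE 0 tested members were higher than in gas-1, 3 were lower and 51 did not pass (edgeR). That is 5.56% of members called against 1.59% of all tested genes, of which 0.633% were higher and 0.954% lower. The unadjusted p was under 0.05 for 14 members (25.9%), against 15.9% of all tested genes. The DESeq2 Wald test called 1 higher and 5 lower, which is 10.9% of the 55 members it tested, against 4.43% of all genes it tested. The median log2 fold change was -0.20 over the members and 0.03 over all tested genes. The 3 lower members were also those with all OE libraries below all gas-1 libraries, which held for 2.41% of all tested genes, and 0 members had all OE libraries above, which held for 1.34% of all tested genes.

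ugt-27 was near 0 again, with 0.565 CPM in OE replicate 3 and 0 in the other OE libraries, against 2.43 to 16.5 CPM in gas-1. The counts were 6 in OE and 633 in gas-1, a ratio of 0.00753 with an exact 95% counting interval of 0.00275 to 0.0165. The fitted log2 fold change was -6.58 ± 1.13 (adjusted p = 0.00557). ugt-16 had 9.24, 7.32, 21.6, 23.1 and 7.92 CPM in OE, against 33.7 to 73.7 CPM in gas-1 (log2 fold change -1.95 ± 0.41, adjusted p = 0.0228). In OE both genes overlapped their wild type libraries, and neither passed the test for OE over wild type (ugt-27 adjusted p = 0.280, and ugt-16 0.59 ± 0.40, adjusted p = 0.375).

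ugt-41 was lower still than in gas-1. It had 5.82, 3.25, 10.2, 13.9 and 3.66 CPM in OE, against 17.2 to 47.2 CPM in gas-1 (log2 fold change -2.08 ± 0.42, adjusted p = 0.0189). OE over wild type it was -3.32 ± 0.44 (adjusted p = 0.000317), and no OE library reached a wild type one. It was the only member called in all 3 comparisons, and its call for gas-1 over wild type was lost under 10 of 26 alternative settings. Leaving out 1 library ended some of the calls of OE over gas-1: without OE replicate 1, and likewise without OE replicate 5, ugt-27 was the 1 member still called. The call of ugt-16 was lost under 6 of 26 alternative settings and that of ugt-41 under 3. With the germline covariate ugt-27 and ugt-41 were still called, in a fit that called 1.58% of all tested genes. Of the marker lists, 1 of 23 intestine markers was higher and 1 lower in OE than in gas-1, and 0 of 24 germline markers were called (median log2 fold change 0.43).

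Most of the members that were higher in gas-1 had no call here. ugt-62 had 860, 487, 813, 1601 and 797 CPM in OE, within and below the gas-1 range of 1145 to 1660 CPM (log2 fold change -0.55 ± 0.29, adjusted p = 0.382). ugt-19 had 43.2, 25.7, 38.5, 79.3 and 23.6 CPM in OE, against 41.7 to 91.2 CPM in gas-1 (-0.50 ± 0.36). ugt-50 had 111.5, 46.8, 110.4, 183.0 and 112.7 CPM in OE, against 109.5 to 169.4 CPM in gas-1 (-0.28 ± 0.30). These groups overlapped, and neither gene passed. ugt-61 had 70.5, 33.9, 67.2, 94.0 and 69.2 CPM in OE, against 40.8 to 70.9 CPM in gas-1 (0.14 ± 0.27). ugt-52 had 2.84, 0.755, 1.79, 5.17 and 1.89 CPM in OE, against 5.17 to 17.7 CPM in gas-1 (-1.83 ± 0.63, adjusted p = 0.163). The highest OE library of ugt-52 just reached the lowest gas-1 library. ugt-52 was called lower in 3 of 26 alternative settings: DESeq2 (adjusted p = 0.0496), limma-voom (0.0347) and limma on log2 TPM (0.0110). ugt-2 (0.10 ± 0.31) and ugt-21 (-1.05 ± 0.39, adjusted p = 0.201) did not pass in the main fit either. ugt-21 was called lower in 1 alternative setting, limma on log2 TPM (adjusted p = 0.0377). Among the abundant members that had no call in OE over gas-1, ugt-22 had 451.3, 201.0, 544.6, 682.9 and 429.1 CPM in OE, against 387.8 to 821.9 CPM in gas-1. ugt-64 had 61.8, 73.7, 95.9, 103.0 and 72.8 CPM in OE, against 36.9 to 203.6 CPM in gas-1. Both overlapped between the groups. ugt-26 had 24.9, 22.2, 41.4, 75.96 and 46.6 CPM in OE, against 52.2 to 165.6 CPM in gas-1. ugt-44 had 142.4, 82.2, 131.5, 171.6 and 142.8 CPM in OE, against 100.3 to 186.1 CPM in gas-1. OE replicate 4 was inside the gas-1 range for both genes. A p above the threshold does not show that these levels were alike.

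ugt-53 leaned the other way. It had 33.9, 8.42, 27.3, 47.1 and 34.8 CPM in OE, against 7.22 to 19.3 CPM in gas-1 and 44.8 to 87.4 CPM in wild type. OE over gas-1 it was 1.48 ± 0.38 (adjusted p = 0.0565), and it passed in 5 of 26 alternative settings, one of them without OE replicate 2 (adjusted p = 0.00927) and one without gas-1 replicate 3 (adjusted p = 0.0349). OE over wild type ugt-53 was -1.20 ± 0.37 (adjusted p = 0.0515), and it was called lower in 8 alternative settings, among them DESeq2 (adjusted p = 0.0179). OE replicate 2 was the lowest OE library for 31 of the 34 members with a mean of at least 5 CPM in OE, and OE replicate 4 was the highest for 29. The mean intestine marker level was 5.56 in replicate 2 and 6.92 in replicate 4, the lowest and the highest of the OE libraries, and the part of this in the results was not tested.

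The third comparison sets the overexpressing mutant against wild type. In OE 13 members were higher, 2 were lower and 39 did not pass. That is 27.8% of members called against 9.33% of all tested genes. Of the members 24.1% were higher and 3.7% lower, against 7.09% and 2.24% of all genes. The median log2 fold change was 0.54 over the members and -0.04 over all tested genes. All OE libraries lay above all wild type ones for 5 members and below them for 3, against 4.2% and 2.23% of all tested genes (6.43% in either direction). Without OE replicate 4, 7 members were higher and 4 lower. Of the markers, 11 of 23 for intestine were higher and 1 lower in OE than in wild type, 1 of 24 for germline was lower and 5 of 14 for muscle were lower. With the germline covariate 9 of the 15 members were still called, 7 of them as higher, against 602 of 988 over all genes (60.9%). That fit called 6.27% of all tested genes.

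This comparison shares the wild type libraries with the first and the OE libraries with the second, so the values are given side by side and not as a separate line of evidence. For ugt-62 the log2 fold change over wild type was 2.71 ± 0.31 in OE (adjusted p = 0.000111) and 3.26 ± 0.32 in gas-1. For ugt-19 it was 3.12 ± 0.39 in OE (adjusted p = 0.000257) and 3.63 ± 0.40 in gas-1. ugt-2 stood at 2.63 ± 0.33 in OE (adjusted p = 0.000257) and 2.52 ± 0.33 in gas-1. ugt-2 had 92.3, 58.7, 100.9, 245.4 and 109.1 CPM in OE, each above the 22.8 CPM of the highest wild type library.

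ugt-61 was 1.62 ± 0.28 (adjusted p = 0.00265) in OE over wild type, and ugt-50 was 1.71 ± 0.31 (adjusted p = 0.00349). ugt-21, with 23.7, 11.4, 24.0, 53.9 and 21.98 CPM in OE, was 1.98 ± 0.41 (adjusted p = 0.00783). Its lowest OE library, replicate 2, fell just below the highest wild type library of 11.98 CPM. ugt-52 was 2.89 ± 0.67 (adjusted p = 0.0146), ugt-17 1.56 ± 0.37 (adjusted p = 0.0165) and ugt-47 1.38 ± 0.34 (adjusted p = 0.0195). These calls were lost under 5, 3 and 2 of 26 alternative settings. ugt-30 (1.30 ± 0.38, adjusted p = 0.0417) and ugt-49 (1.09 ± 0.33, adjusted p = 0.0453) were close to the threshold, and lost their calls under 14 and 19 of the 26. ugt-23 (1.12 ± 0.31, adjusted p = 0.0316) and ugt-46 (0.97 ± 0.25, adjusted p = 0.0241) were called here and not for gas-1 over wild type. Their calls were lost under 10 and 7 of the 26, among them, for both genes, the settings that left out wild type replicate 1 or 5 or OE replicate 1 or 4. Whether they differ between OE and gas-1 was tested in the second comparison, and neither passed.

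ugt-63 (WBGene00015449, chrV:5108180-5110772, minus strand) was called lower in OE over wild type, and in no other comparison of the main fit. It had 0.129, 0, 0.188, 0 and 0 CPM in OE, against 24.8, 12.1, 0.140, 27.6 and 2.79 CPM in wild type. The groups overlapped through wild type replicate 3. The counts were 4 in OE and 1178 in wild type, a ratio of 0.00424 with an exact 95% counting interval of 0.00115 to 0.0109, and the adjusted p was 0.00986. Its high values were in wild type replicates 1, 2 and 4, the libraries with high muscle markers. Without those libraries it was no longer called (adjusted p = 0.316). That fit keeps 2 wild type libraries and called 1.23% of all tested genes. The libraries left out are the highest ones of ugt-63, so leaving them out lowers its wild type level by construction. What ended the call was not tested, and neither was the part of muscle. In gas-1 ugt-63 had 0.141, 2.55, 3.35, 0 and 0 CPM. Over wild type that was a log2 fold change of -3.47 ± 1.27 (edgeR adjusted p = 0.059), close to the threshold. This result was called lower in 2 alternative settings: limma on log2 TPM (adjusted p = 0.0210) and without wild type replicate 3 (0.0315). Its lower level is thus not particular to OE.

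Chosen after values were seen, ugt-60, ugt-66 and ugt-41 also had wild type replicates 1, 2 and 4 above every OE and gas-1 library and above the other wild type libraries. ugt-66 had 8.85, 4.11 and 6.42 CPM in those libraries and 0 in all others. Including ugt-63, this order held for 3 of the 54 tested members (5.56%) and for 3.2% of all tested genes. Whether muscle or other tissue carried these transcripts was not tested. Without wild type replicates 1, 2 and 4, 6 of the 15 members called in OE over wild type were still called: ugt-2, ugt-19, ugt-21, ugt-41, ugt-61 and ugt-62. Over all genes 134 of 988 (13.6%) were still called, and that fit called 1.23% of all tested genes.

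In all, 23 of the 54 tested members were called in at least 1 comparison and 31 in none. Higher in both OE and gas-1 than in wild type were 11: ugt-2, ugt-17, ugt-19, ugt-21, ugt-30, ugt-47, ugt-49, ugt-50, ugt-52, ugt-61 and ugt-62. Of these, ugt-30 and ugt-49 are the ones whose OE over wild type calls were lost under more than 10 alternative settings. Higher in gas-1 than in wild type but not called in the other comparisons were ugt-5, ugt-28, ugt-44 and ugt-54. Both comparisons with wild type use the same wild type libraries. Taken singly, they called 12.8% (gas-1) and 7.09% (OE) of all tested genes higher. The shares of all tested genes with these joint patterns were not computed, so the counts list members and describe no trait of the family.

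Enzymes that make, move or compete for UDP-sugars were looked at beside the family. Of 18 listed genes 17 were matched and tested, and 5 were higher and 3 lower in gas-1 than in wild type (median log2 fold change 0.34). Over all tested genes 12.8% were higher and 8.63% lower. gale-1, the UDP-galactose 4-epimerase gene, averaged 98.8 ± 31.5 CPM in gas-1 and 47.7 ± 6.60 CPM in wild type (SD, n = 5 each; log2 fold change 1.05 ± 0.19, adjusted p = 0.00195). It was also the one gene of this list called for OE over gas-1, at 41.8 ± 5.73 CPM in OE and 98.8 ± 31.5 CPM in gas-1 (SD, n = 5 each; log2 fold change -1.24 ± 0.19, adjusted p = 0.00327). Y43F4B.5 was 0.72 ± 0.16 in gas-1 over wild type, and cgt-1, a ceramide glucosyltransferase gene, was 3.76 ± 1.00 (adjusted p = 0.0162). The level of cgt-1 was low, at 7.97 ± 3.79 CPM in gas-1 and 0.583 ± 0.524 CPM in wild type (SD, n = 5 each). sqv-4, the UDP-glucose dehydrogenase gene that makes UDP-glucuronic acid, averaged 64.6 ± 13.6 CPM in gas-1 and 104.3 ± 20.1 CPM in wild type (SD, n = 5 each), and it is named after its values were seen (log2 fold change -0.69 ± 0.20, adjusted p = 0.0237). OE over wild type, 4 genes of the list were higher and 0 lower, against 7.09% and 2.24% of all tested genes.

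Regulators of detoxification genes, together with the enzyme gene emb-8, formed a list of 24 tested genes. Of these, 6 were higher and 2 lower in gas-1 than in wild type (median log2 fold change 0.17), against 12.8% and 8.63% of all tested genes. For OE over gas-1, 0 were called, against 1.59% of all tested genes. In OE 4 were higher and 1 lower than in wild type, against 7.09% and 2.24% of all tested genes. emb-8, the P450 reductase gene, was 1.17 ± 0.22 in gas-1 over wild type, nhr-8, a nuclear receptor gene with a part in xenobiotic resistance, was 1.5 ± 0.30, and cep-1, the p53 homologue, was -0.95 ± 0.18. nhr-8 had 1.66 ± 0.30 in OE over wild type (adjusted p = 0.00344). The lower calls against wild type included nhr-80 in both gas-1 and OE, and this call rests on wild type replicate 1 with 9762 CPM, against 10.5 to 69.4 CPM in the other wild type libraries.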

How the data were processed

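Per the submitters' processing notes, bcl2fastq 2.20 and kallisto 0.44.0 were used with build WBcel235; which annotation release they used is not given in the sources used here. Each of the 15 deposited tables lists 61451 targets with estimated counts, which are not normalized, with TPM, and with a length in bases (an other value), per the file headers. Targets carry integers, which were read as line numbers, from 0, of the deposited transcript map. Under that reading 86 of 86 coding ugt transcripts were at least as long as their annotated coding sequence in Ensembl release 115, against 40 of 86 with the map moved by 1 line. The deposited map's names (other values) gave the members. A deposited table of the authors' own comparisons was not used.

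Estimated counts were summed per gene and rounded. edgeR 4.0.16 in R 4.3.3 fitted all 15 libraries together (scaled by TMM, filtered by filterByExpr at minimum count 10, quasi-likelihood F test, 12 residual degrees of freedom). The standard errors given beside log2 fold changes come from this fit, and CPM are TMM-scaled. The common biological coefficient of variation was 0.527. In counts simulated from these libraries, 67, 67 and 66 of 10585 genes were changed 2-, 4- and 8-fold. For gas-1 over wild type, 40.3%, 91% and 95.5% of these were recovered, so 2-fold differences were often missed. Recovery was not computed apart for genes of low level. The rates therefore do not tell how often changes in members of low level would be recovered. Total counts of 12182697 to 45896053 per library and the spread between libraries both limit the precision.

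Members given with every library's value were, per comparison, the 8 called members of smallest adjusted p, the 6 members of highest wild type TPM, and members called in both of the first comparisons; other members are given by fold change or range. Members, lists and rules were chosen with earlier results of these data known. Equal replicate numbers did not pair libraries (0, 1 and 1 of 5 pairs with a residual correlation over 0.1 in the 3 comparisons), so no block was used. Alternatives were other scalings (RLE, upper quartile), no filter and a minimum count of 50, DESeq2 1.42.0, limma 3.58.1 (voom, and log2 of TPM plus 1), only the groups compared, a replicate block, a germline covariate, wild type replicates 1, 2 and 4 left out, and each library left out. No sequence is shown, because no table of sequences was used here.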

Additional observations from a re-analysis of the deposited data

Results flagged for a closer look

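In 6 of 78 groups of 5 libraries, over 26 called or abundant ugt genes, 1 library stood apart from the other 4, its gap to the nearest being a large part of the group's range. For independent values with a normal spread such a rule flags about 1 in 20 groups. Whether that rate holds for these CPM was not tested. For ugt-27, OE replicate 3 had 0.565 CPM and the other OE libraries 0 (gap 1.0 of the range). Likewise, wild type replicate 1 had 0.0518 CPM of ugt-27 and the other wild type libraries 0 (gap 1.0). That wild type value is 1 estimated count, and a gap of 1.0 follows whenever all other libraries are at 0. ugt-37 had 2.63 CPM in OE replicate 4, against 0.0249 to 0.188 CPM in the other OE libraries (gap 0.7315). ugt-49 had 5.58 CPM in OE replicate 2, against 13.2 to 17.5 CPM in the others (gap 0.7501), and that library was the lowest of its group for most members. ugt-54 had 80.7 CPM in gas-1 replicate 5, against 22.3 to 31.1 CPM in the others (gap 0.7431). ugt-2 had 12.4 CPM in wild type replicate 1, against 19.9 to 22.8 CPM in the others (gap 0.7751).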

How the results depend on the processing

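For named members, 865 of the alternative values of called results kept direction and call, 118 kept the direction and lost the call, and 1 reversed: ugt-49 in gas-1 over wild type, at -0.10 with the germline covariate (adjusted p = 0.953). In gas-1 over wild type the count of higher members, 17, was 6 with the germline covariate. The count of lower members, 3, was 6 with limma on log2 TPM, 1 with the germline covariate and 1 without wild type replicates 1, 2 and 4. In OE over gas-1 the count of higher members, 0, was 1 with no filter, 1 with DESeq2 and 2 with the germline covariate, and the count of lower members, 3, was 5 with DESeq2 and 7 with log2 TPM. In OE over wild type the count of higher members, 13, was 7 with the germline covariate and 5 without wild type replicates 1, 2 and 4. The count of lower members, 2, was 5 with no filter, 5 with DESeq2, 10 with log2 TPM, 5 with the germline covariate and 1 without those wild type libraries. The cause was not tested. With 1 library left out, higher and lower counts ran from 16 to 21 and 1 to 3 in gas-1 over wild type, from 0 to 1 and 1 to 3 in OE over gas-1, and from 7 to 17 and 2 to 4 in OE over wild type. The lower count for gas-1 over wild type was 1 when any of wild type replicates 1, 2, 4 and 5, or any of gas-1 replicates 1, 3 and 4, was left out. The higher count for OE over gas-1 was 1 without gas-1 replicate 3 or OE replicate 2, and its lower count was 1 without OE replicate 1 or 5. Without OE replicate 4, OE over wild type had 7 higher and 4 lower. With the replicate block the counts were 17 and 2, 0 and 2, and 11 and 2, and it ended the calls of ugt-41 (adjusted p = 0.0738) and ugt-49 (0.0564) in gas-1 over wild type, of ugt-41 (0.0632) in OE over gas-1, and of ugt-49 (0.105) and ugt-52 (0.0538) in OE over wild type, although equal numbers did not pair libraries. The share of all tested genes' calls that were higher was 59.7%, 39.9% and 76.0% in the 3 comparisons, 72.6%, 26.5% and 77.1% with upper-quartile scaling, and 40.3%, 14.9% and 30.7% with log2 TPM. The log2 TPM scale set the median of all genes at -0.32, -0.10 and -0.37, where it was -0.11, 0.03 and -0.04, and the median of the members at 0.42, -0.37 and 0.08, where it was 0.63, -0.20 and 0.54. The germline covariate turned the median of the members to -0.19 in gas-1 over wild type and to 0.26 in OE over gas-1. Depth and spread limit what could be called: 2-fold changes were often missed in simulated counts, so members not called may still differ.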
